A study of Mus musculus with 36 samples.

Results

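The 10 genes examined encode the precursors of neuropeptides: Sst, Npy, Vip, Cort, Cck, Penk, Pdyn, Tac1, Crh and Adcyap1. They were taken by name, through their Ensembl identifiers, from the 26709 genes of the RNA-seq table, and all 10 were above the minimum mean of 10 normalised counts that left 16209 genes for testing. Crh, with a control mean of 2.19, passed only through its late stimulated groups, so a late rise was a condition of its being tested. The cells were primary cortical neurons (CNs) of CD-1 mice, prepared from embryonic day 15 cortex pooled over embryos and kept for 7 days in vitro. All cultures, controls included, received 100 µM AP-5, an NMDA receptor blocker, and 1 µM TTX, a sodium channel blocker, which silence spontaneous activity. Stimulated cultures then received either BDNF, a neurotrophin, at 10 ng/ml, or, for depolarisation, 55 mM KCl. Exposure lasted 1, 6 or 10 h, starting 2 h after silencing began. Control cultures stayed in AP-5 and TTX alone for 3, 8 or 12 h, and are called the 1, 6 and 10 h controls. Each of the 9 groups had 2 RNA-seq libraries, called A and B, and 2 ATAC-seq libraries, which measure open chromatin. The study describes the samples of a group as independent biological replicates.

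Neuropeptides are made as long precursors that are cut and modified in dense-core vesicles and released, mostly by strong or repeated firing, onto G-protein-coupled receptors. In cortex many of them mark types of GABAergic interneuron, and the transcription of several is a classical target of neuronal activity through calcium, cAMP and the transcription factor CREB, which binds the cAMP response element (CRE). A precursor mRNA is therefore both a cell type marker and an activity-regulated transcript. In a bulk culture, more cells of a type and more mRNA per cell cannot be told apart.

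RNA-seq libraries held 8.51 to 36.7 M reads (median 11.6 M) and ATAC-seq libraries 1.24 to 6.24 M reads in peaks (median 3.55 M). Library B of KCl 6 h stood apart: Gm42418, a gene whose locus overlaps ribosomal RNA sequence, had 435267 normalised counts there, or 3.26% of the library, against 5055 to 50575 in the other 17. Without that library, 8 members were called at KCl 6 h in place of 9, the loss being Vip.

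The values are read counts that the authors normalised by library size factors. In the controls, per kilobase of annotated exon, Sst was the most abundant member at 2955 ± 624 (SD, n = 6), followed by Cck at 495 ± 73.4, Npy at 399 ± 49.0 and Penk at 113 ± 19.5. Cort stood at 54.4 ± 16.3, Adcyap1 at 14.5 ± 2.70 and Pdyn at 12.3 ± 1.48. Tac1 at 6.97 ± 2.06, Vip at 3.83 ± 1.05 and Crh at 1.66 ± 1.19 were the lowest. Ranges over the 6 controls overlapped between the neighbours Cck and Npy, Adcyap1 and Pdyn, Tac1 and Vip, and Vip and Crh. Crh had 15 reads over all 6 controls together and was near the limit of detection in silenced cultures.

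The promoter sequences of the members are given first, because several of these genes are textbook CRE genes and because the ATAC-seq data bear on 3 of the promoters. Of the 32851 RefSeq promoters of build GRCm38.p6 (mm10), 10 belong to 8 of the 10 members (all but Penk and Crh). Their 250 bases upstream of the RefSeq start site were searched on both strands for the palindromic CRE TGACGTCA, for its core TGACG, which the palindrome contains on each strand, and for the AP-1 site TGANTCA, a different word that contains neither of the others. The core was found in 6 of the 8 members (Sst, Vip, Adcyap1, Tac1, Cck and Cort) and in 17.8% of all promoters. The palindrome was found in Sst alone among the 8, and in 1.55% of all promoters. The AP-1 site was found in none of the 8, and in 6.75% of all promoters. A match describes the letters of the window and is not a measured binding site. The upstream sequences of 5 members are printed 5′ to 3′ on the strand of the gene, with CRE cores in capitals: Sst for its palindrome, Adcyap1 and Vip as related peptides that responded differently, and Tac1 and Npy for the open regions over their promoters.
Sst, chr16:23890845-23891094, minus strand: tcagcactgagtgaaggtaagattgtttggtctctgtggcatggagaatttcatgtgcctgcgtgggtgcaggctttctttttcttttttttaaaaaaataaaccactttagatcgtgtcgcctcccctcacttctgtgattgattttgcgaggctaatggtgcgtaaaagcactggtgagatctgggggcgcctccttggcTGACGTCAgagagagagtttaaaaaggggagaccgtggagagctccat
Adcyap1, chr17:93198767-93199016, plus strand: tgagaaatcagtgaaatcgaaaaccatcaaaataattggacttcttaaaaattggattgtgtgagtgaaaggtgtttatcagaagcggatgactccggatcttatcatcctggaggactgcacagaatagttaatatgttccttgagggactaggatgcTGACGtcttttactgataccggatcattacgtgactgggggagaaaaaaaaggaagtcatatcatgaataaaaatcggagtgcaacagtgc
Vip, chr10:5638968-5639217, plus strand: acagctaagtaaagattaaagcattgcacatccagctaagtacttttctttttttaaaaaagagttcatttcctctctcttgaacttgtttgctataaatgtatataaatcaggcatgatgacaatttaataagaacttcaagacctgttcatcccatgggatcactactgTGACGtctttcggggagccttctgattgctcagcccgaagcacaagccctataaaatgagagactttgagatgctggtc
Tac1, chr6:7554811-7555060, plus strand: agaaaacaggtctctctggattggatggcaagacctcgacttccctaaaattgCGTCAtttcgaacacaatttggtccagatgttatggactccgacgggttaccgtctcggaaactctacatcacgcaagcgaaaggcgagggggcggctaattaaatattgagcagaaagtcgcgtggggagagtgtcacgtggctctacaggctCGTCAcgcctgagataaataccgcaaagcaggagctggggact
Npy, chr6:49822460-49822709, plus strand: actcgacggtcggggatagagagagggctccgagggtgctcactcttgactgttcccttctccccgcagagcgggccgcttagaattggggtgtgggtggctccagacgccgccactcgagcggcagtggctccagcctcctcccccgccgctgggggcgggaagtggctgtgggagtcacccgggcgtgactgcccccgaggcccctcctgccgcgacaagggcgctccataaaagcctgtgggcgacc
Counting from -1 at the base before the start site, the Sst palindrome spans -48 to -41. The core lies at -91 to -87 in Adcyap1 and at -79 to -75 in Vip, on the gene's strand in both. Tac1 has it on the opposite strand at -197 to -193 and again at -43 to -39, Cck at -47 to -43 and Cort at -18 to -14. The second RefSeq start of Adcyap1 places the same core at -242 to -238. The upstream windows of Npy and of both Pdyn starts hold none of the 3 motifs.

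To ask which precursors respond to each stimulus, the 2 libraries of each stimulated group were compared with all 6 controls, and a gene was called at an adjusted p below 0.1 (limma on log2 of the normalised count plus 1, Benjamini-Hochberg over 16209 genes). Nearly every call was an increase, and Adcyap1, which BDNF lowered and KCl raised, was the exception. With BDNF, 5 members were higher and 1 lower at 1 h, 8 higher and 1 lower at 6 h, and 7 higher and 1 lower at 10 h. Over all genes tested, BDNF called 21.3% higher and 19% lower at 1 h, 22.1% and 21.1% at 6 h, then 21.1% and 19.5% at 10 h. With KCl, 7, 9 and 9 members were higher at 1, 6 and 10 h and 0 were lower. The counts at 6 and 10 h and the medians include Crh, whose late rise was a condition of its being tested. The background for KCl was 26.5% higher and 28.2% lower at 1 h, 33.4% and 33.1% at 6 h, then 29% and 28.2% at 10 h. Among the members, 0 were lower with KCl at an unadjusted p under 0.05, and edgeR and DESeq2 on the recovered reads also called 0 lower. The median log2 fold change of the members was 0.49, 0.71 and 0.88 with BDNF and 0.44, 1.00 and 1.16 with KCl at 1, 6 and 10 h, while the median of all genes lay between -0.01 and 0.01 in each comparison.

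**Figure D1:**
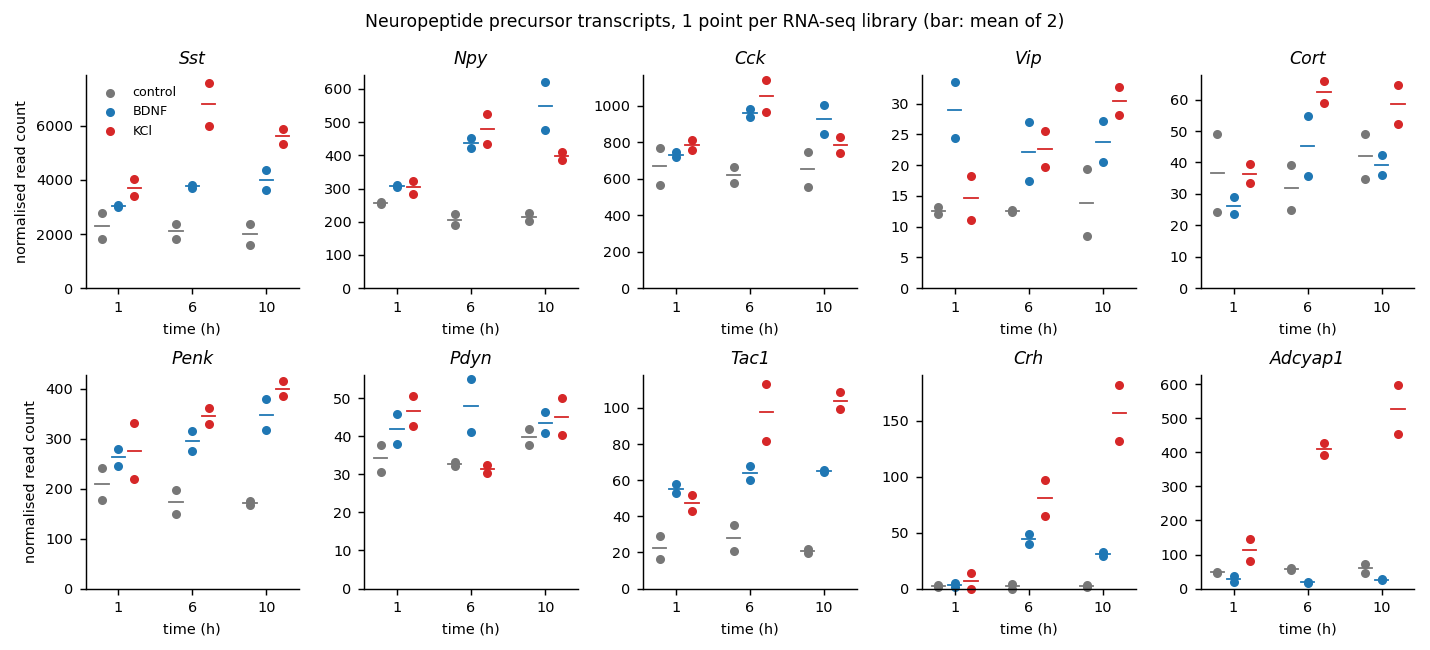
Normalised read count (vertical axes, starting at 0) of each precursor against time after stimulation in hours, with 1 point per RNA-seq library and a bar at the mean of the 2 libraries of a group (controls grey, BDNF blue, KCl red). Sst, Npy and Tac1 lie above all controls in all 12 stimulated libraries, and Adcyap1 lies below the controls with BDNF and above them with KCl. The share of all genes that lie apart from the controls in this way was not counted.

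Sst (ENSMUSG00000004366, mm10 chr16:23889573-23890958, minus strand) encodes somatostatin, the inhibitory peptide of a large class of dendrite-targeting interneurons. Its normalised count in the 6 controls ran from 1611 to 2781 with a median of 2098. BDNF gave 3012 and 3077 at 1 h, 3698 and 3814 at 6 h, then 3630.4 and 4349 at 10 h, and KCl gave 4032 and 3399, 5974 and 7586, and 5889 and 5312. All 12 stimulated libraries were above the highest control, and the KCl libraries at 6 and 10 h were above every BDNF library. The log2 fold change was 0.54 ± 0.18 (SE), 0.84 ± 0.18 and 0.93 ± 0.18 with BDNF (adjusted p = 0.0345, 0.00271 and 0.00177, limma). With KCl it was 0.82 ± 0.18, 1.69 ± 0.18 and 1.42 ± 0.18 (adjusted p = 0.00205, 3.17e-06 and 2.64e-05, limma). Only the BDNF 1 h call rested on single libraries: without A the log2 fold change was 0.56 and without B 0.53, and neither passed, nor did the value of 0.44 against controls of the same time.

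Npy (ENSMUSG00000029819, chr6:49822710-49829507, plus strand) encodes neuropeptide Y, found in interneurons that often also make somatostatin. The controls ran from 189.8 to 260.0, with a median of 224. BDNF gave 304 and 311 at 1 h, 421 and 453 at 6 h, and then 476 and 621 at 10 h. KCl gave 322 and 284 at 1 h, 433 and 526 at 6 h, and then 409 and 387 at 10 h. The means of the BDNF groups were thus ordered by time, while those of the KCl groups were highest at 6 h, and no stimulated library overlapped the controls. BDNF raised Npy by 0.45 ± 0.12, 0.96 ± 0.12 and 1.27 ± 0.12 on the log2 scale (adjusted p = 0.00462, 1.44e-06 and 3.78e-08, limma), and KCl by 0.43 ± 0.12, 1.08 ± 0.12 and 0.82 ± 0.12 (adjusted p = 0.00439, 7.24e-08 and 5.82e-06, limma). Both 1 h calls were lost when the controls of the same time replaced all 6, with log2 fold changes of 0.26 and 0.24.

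Vip (ENSMUSG00000019772, chr10:5639218-5647617, plus strand) encodes vasoactive intestinal peptide, the marker of interneurons that inhibit other interneurons. It was a low gene, with 8.41 to 19.4 normalised counts in the controls (median 12.6). BDNF gave 33.5 and 24.4 at 1 h, 27.0 and 17.4 at 6 h, then 27.1 and 20.4 at 10 h, and KCl gave 11.1 and 18.2, 19.7 and 25.5, and 28.1 and 32.7. Both stimuli gave values above the controls at 10 h, but at 1 h only the BDNF libraries were above them. BDNF raised Vip by 1.11 ± 0.29, 0.73 ± 0.29 and 0.84 ± 0.29 (adjusted p = 0.00437, 0.0511 and 0.0279, limma). With KCl the log2 fold change was 0.16 ± 0.29 at 1 h, which did not pass (adjusted p = 0.685, limma), and Vip rose by 0.77 ± 0.29 and 1.19 ± 0.29 at 6 and 10 h (adjusted p = 0.0236 and 0.00151, limma). Of these calls only KCl 10 h held without each library in turn: the BDNF calls were lost without library A of their group (log2 fold changes of 0.89, 0.43 and 0.65) and the KCl 6 h call without the library B that stood apart (0.60). With controls of the same time the BDNF calls at 6 and 10 h were lost, at 0.74 and 0.82. The BDNF 6 h call was also lost by DESeq2 (0.76, adjusted p = 0.103, DESeq2).

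Cort (ENSMUSG00000028971, chr4:149125034-149126763, minus strand) encodes cortistatin, a relative of somatostatin that binds the same receptors. The controls ran from 24.1 to 49.1, with a median of 37.0. BDNF gave 28.9 and 23.7 at 1 h, 54.9 and 35.7 at 6 h, then 36.2 and 42.4 at 10 h, which overlapped the controls at every time. KCl gave 33.3 and 39.6 at 1 h, inside the control range, and 65.9 and 59.0 at 6 h followed by 64.8 and 52.3 at 10 h, above every control. Cort rose with KCl at 6 h by 0.80 ± 0.25 and at 10 h by 0.70 ± 0.25 on the log2 scale (adjusted p = 0.00899 and 0.0244, limma). Without library A of KCl 10 h the 10 h value was 0.55 and with controls of the same time 0.48, and neither passed. Its log2 fold changes with BDNF were -0.42 ± 0.25, 0.31 ± 0.25 and 0.14 ± 0.25, which did not pass (adjusted p = 0.209, 0.352 and 0.707, limma), although the 1 h value passed, at -0.53, without library B of the 1 h controls.

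Cck (ENSMUSG00000032532, chr9:121489824-121495694, minus strand) encodes cholecystokinin, which marks a class of basket cell and is also made by many pyramidal neurons. The controls ran from 554 to 769, with a median of 620.1. BDNF gave 745 and 718 at 1 h, 937 and 982 at 6 h, then 844 and 1006 at 10 h. KCl gave 812 and 758 at 1 h, 966 and 1141 at 6 h, then 826 and 741 at 10 h. The 6 h libraries of both stimuli and the 10 h BDNF libraries were above all controls. Cck was among the least changed members: its called log2 fold changes were 0.58 ± 0.11 and 0.52 ± 0.11 with BDNF at 6 and 10 h (adjusted p = 0.000522 and 0.00162, limma), and 0.29 ± 0.11, 0.71 ± 0.11 and 0.29 ± 0.11 with KCl at 1, 6 and 10 h (adjusted p = 0.0406, 2.2e-05 and 0.0421, limma). The value at BDNF 1 h, 0.19 ± 0.11, did not pass (adjusted p = 0.216, limma), though it passed at 0.24 without library A of the 1 h controls. The KCl calls at 1 and 10 h were lost without library A of their group, at 0.24 and 0.21, and with controls of the same time, at 0.25 and 0.28.

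Penk (ENSMUSG00000045573, chr4:4133531-4138819, minus strand) encodes proenkephalin, the source of the enkephalins, which act on delta and mu opioid receptors. A non-coding gene, A830012C17Rik, overlaps its first bases on the opposite strand, and whether the counting used strand is not given in the sources used here, so reads from the shared bases cannot be assigned. The controls ran from 148 to 241, with a median of 176. BDNF gave 279.8 and 245 at 1 h, 314 and 275 at 6 h, then 316 and 379.9 at 10 h, and KCl gave 331 and 219, 362 and 329.9, and 414 and 384. All stimulated libraries were above the controls except library B of KCl 1 h. Penk rose by 0.52 ± 0.15, 0.69 ± 0.15 and 0.93 ± 0.15 with BDNF (adjusted p = 0.0123, 0.00151 and 0.000126, limma) and by 0.56 ± 0.15, 0.92 ± 0.15 and 1.13 ± 0.15 with KCl (adjusted p = 0.00483, 3.28e-05 and 5.07e-06, limma). At 1 h the BDNF call was lost without library A (0.43) and the KCl call without library A (0.27, against 0.86 without B). Both were also lost with controls of the same time, at 0.34 and 0.38.

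Pdyn (ENSMUSG00000027400, chr2:129686565-129699844, minus strand) encodes prodynorphin, the source of the dynorphins, which act on kappa opioid receptors. It varied least of the 10 over the 9 groups. The controls ran from 30.7 to 42.1, with a median of 35.4, and 6 of the 12 stimulated libraries were above them. BDNF gave 38.0 and 45.8 at 1 h, 54.9 and 41.2 at 6 h, then 46.3 and 40.9 at 10 h, and KCl gave 50.6 and 42.8, 30.5 and 32.4, and 50.1 and 40.3. The calls at BDNF 6 h (0.42 ± 0.18, adjusted p = 0.0832, limma) and KCl 1 h (0.38 ± 0.18, adjusted p = 0.0903, limma) were small and close to the threshold. Each was lost without library B of the 1 h controls, or A or B of the 6 h controls, or A of its own group (0.21 to 0.40 at BDNF 6 h and 0.27 to 0.37 at KCl 1 h), and the KCl 1 h call also without B of its group (0.50) and with controls of the same time (0.44). Both calls were also lost by DESeq2 (adjusted p = 0.184 and 0.233, DESeq2) and without the filter on low values (adjusted p = 0.127 and 0.124, limma). The remaining 4 log2 fold changes lay between -0.17 and 0.34 and did not pass, although KCl 10 h passed, at 0.38, without library A of the 10 h controls.

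Tac1 (ENSMUSG00000061762, chr6:7554879-7565834, plus strand) encodes the precursor of the tachykinins substance P and neurokinin A. The controls ran from 16.5 to 35.3, with a median of 21.1. BDNF gave 57.8 and 52.7 at 1 h, 60.4 and 67.7 at 6 h, then 64.4 and 65.8 at 10 h. KCl gave 51.9 and 42.8 at 1 h, 81.6 and 113 at 6 h, then 109 and 99.1 at 10 h. Every stimulated library was above the highest control from 1 h on, and at 6 and 10 h every KCl library was above every BDNF library. Tac1 rose by 1.23 ± 0.22, 1.44 ± 0.22 and 1.47 ± 0.22 with BDNF (adjusted p = 0.000143, 2.53e-05 and 2.88e-05, limma) and by 1.01 ± 0.22, 2.02 ± 0.22 and 2.13 ± 0.22 with KCl (adjusted p = 0.000663, 7.67e-08 and 7.49e-08, limma). These 6 calls held without each library in turn and under every other setting tried.

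Crh (ENSMUSG00000049796, chr3:19693401-19695396, minus strand) encodes corticotropin-releasing hormone, the peptide of the hypothalamic stress axis, which cortical interneurons also make. It ran from 0 to 3.92 normalised counts in the controls, with a median of 2.30, and had the largest change of the 10 members. BDNF gave 1.52 and 5.34 at 1 h, 48.6 and 40.3 at 6 h, then 32.8 and 29.5 at 10 h. KCl gave 13.6 and 0 at 1 h, 97.3 and 64.8 at 6 h, then 182 and 132 at 10 h. At 1 h the libraries straddled the controls, and at 6 and 10 h all 8 stimulated libraries were far above them. The group mean was 20.3 and 14.2 times that of the controls with BDNF at 6 and 10 h, and 37.0 and 71.6 times with KCl. On the log2 scale with a pseudocount of 1, which understates the change of so low a gene, Crh rose by 4.02 ± 0.79 and 3.52 ± 0.79 with BDNF (adjusted p = 0.00122 and 0.00378, limma) and by 4.85 ± 0.79 and 5.80 ± 0.79 with KCl (adjusted p = 9.83e-05 and 2.99e-05, limma). The 1 h values, 0.52 ± 0.79 and 0.45 ± 0.79, did not pass (adjusted p = 0.667 and 0.674, limma), and at KCl 1 h the value was -1.48 without library A and 2.38 without library B, each past the threshold.

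Adcyap1 (ENSMUSG00000024256, chr17:93199017-93206537, plus strand) encodes PACAP, a peptide of the same family as VIP that raises cAMP through its receptors. The controls ran from 45.7 to 72.1, with a median of 51.6. BDNF gave 18.2 and 36.6 at 1 h, 19.8 and 17.4 at 6 h, then 23.7 and 28.0 at 10 h. KCl gave 144 and 80.2 at 1 h, 429 and 391 at 6 h, then 599 and 454 at 10 h. All 6 BDNF libraries were below the lowest control and all 6 KCl libraries above the highest. The control mean was 2.00, 2.95 and 2.12 times the BDNF mean at 1, 6 and 10 h, and the KCl mean was 2.04, 7.46 and 9.58 times the control mean. Adcyap1 fell with BDNF, with log2 fold changes of -1.04 ± 0.24, -1.50 ± 0.24 and -1.04 ± 0.24 (adjusted p = 0.00171, 4.53e-05 and 0.00199, limma). It rose by 0.98 ± 0.24, 2.89 ± 0.24 and 3.24 ± 0.24 with KCl (adjusted p = 0.00177, 2.03e-09 and 8.15e-10, limma). The 1 h calls were lost without library A of BDNF 1 h (-0.55) and without library A of KCl 1 h (0.56), while those at 6 and 10 h held without each library.

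**Figure D2:**
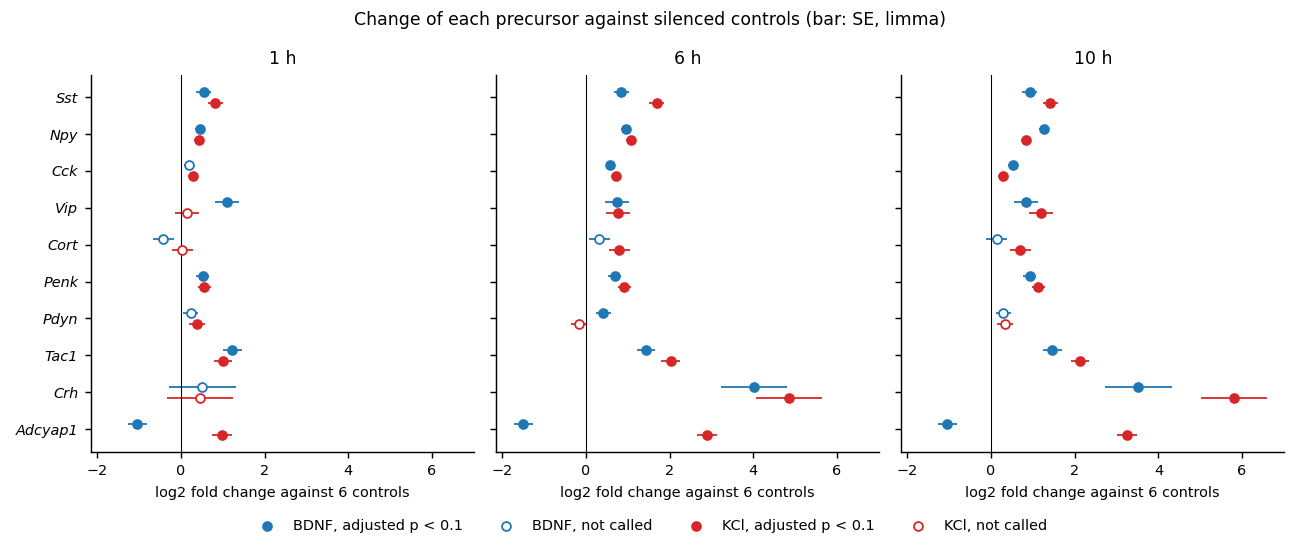
Log2 fold change against the 6 controls (horizontal axis; bars are SE from limma) of the 10 precursors at 1, 6 and 10 h, BDNF in blue and KCl in red, with filled points past an adjusted p of 0.1. Adcyap1 is the member with filled points on both sides of 0, and Crh has the largest values, 5.80 at KCl 10 h.

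To ask where the stimuli differ, BDNF was tested directly against KCl at each time. Adcyap1 was the member that differed at every time, lower with BDNF, with log2 differences of -2.01 ± 0.29 at 1 h, -4.39 ± 0.29 at 6 h and -4.29 ± 0.29 at 10 h (adjusted p = 1.2e-05, 2.22e-10 and 5.09e-10, limma). At 1 h, 1 member was higher with BDNF and 1 lower, against 24.6% and 18.2% of all genes. At 6 h, 1 was higher and 3 lower, against 29.6% and 27.8%, and at 10 h, 1 was higher and 4 lower, against 23.1% and 21.8%. These shares were near the background, so the members as a list did not stand out in number of calls, and the median difference was -0.07, -0.36 and -0.42.

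Sst was lower with BDNF than with KCl at 6 h (-0.84 ± 0.22, adjusted p = 0.00638, limma), a difference that held without each library. The other calls were less firm. Vip was higher with BDNF at 1 h by 0.96 ± 0.35 (adjusted p = 0.0368, limma), but not without library A of BDNF 1 h (0.74) or of KCl 1 h (0.63). Pdyn was higher with BDNF at 6 h by 0.58 ± 0.23 (adjusted p = 0.0354, limma), but not without library A of BDNF 6 h (0.38) or of KCl 6 h (0.54). The Vip and Pdyn calls were also lost by DESeq2 (adjusted p = 0.131 and 0.107, DESeq2). Npy was higher with BDNF at 10 h by 0.45 ± 0.14 (adjusted p = 0.0174, limma), but not without library B of BDNF 10 h (0.26) or of KCl 10 h (0.41).

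Tac1 was lower with BDNF at 6 h (-0.58 ± 0.27, adjusted p = 0.0771, limma), a call lost without library A or B of BDNF 6 h (-0.50 and -0.66) or library B of KCl 6 h (-0.35). That call was also lost without the filter on low values (adjusted p = 0.111, limma). At 10 h Sst (-0.49 ± 0.22), Tac1 (-0.66 ± 0.27) and Crh (-2.28 ± 0.97) were lower with BDNF (adjusted p = 0.0988, 0.0573 and 0.0807, limma). Each of these 3 calls was lost without either library of BDNF 10 h or of KCl 10 h, with values from -0.62 to -0.36 for Sst, -0.73 to -0.60 for Tac1 and -2.51 to -2.05 for Crh, and the Sst call also under the replicate block. The Sst and Crh calls were lost as well when each time had its own control level in the fit (adjusted p = 0.120 and 0.112, limma). The Sst call was also lost with a pseudocount of 5, without the filter on low values and by edgeR. With a pseudocount of 0.5 the Crh call was lost (adjusted p = 0.182, limma). At 1 h the Crh difference, 0.07 with a 95% interval from -2.02 to 2.15, was not called, yet it was 2.00 without library A of KCl 1 h and -1.87 without library B, each past the threshold.

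For Penk the stimuli could not be separated at any time. The 95% intervals of its difference ran from -0.43 to 0.35 at 1 h, from -0.62 to 0.16 at 6 h and from -0.59 to 0.19 at 10 h. For Cck they ran from -0.39 to 0.19, from -0.42 to 0.16 and from -0.06 to 0.53. For Cort they reached from -1.10 to 0.18, from -1.12 to 0.15 and from -1.20 to 0.08, and they therefore leave room for a level with KCl well above that with BDNF. Without library A of BDNF 6 h the Cort difference at 6 h passed, at -0.79.

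**Figure D3:**
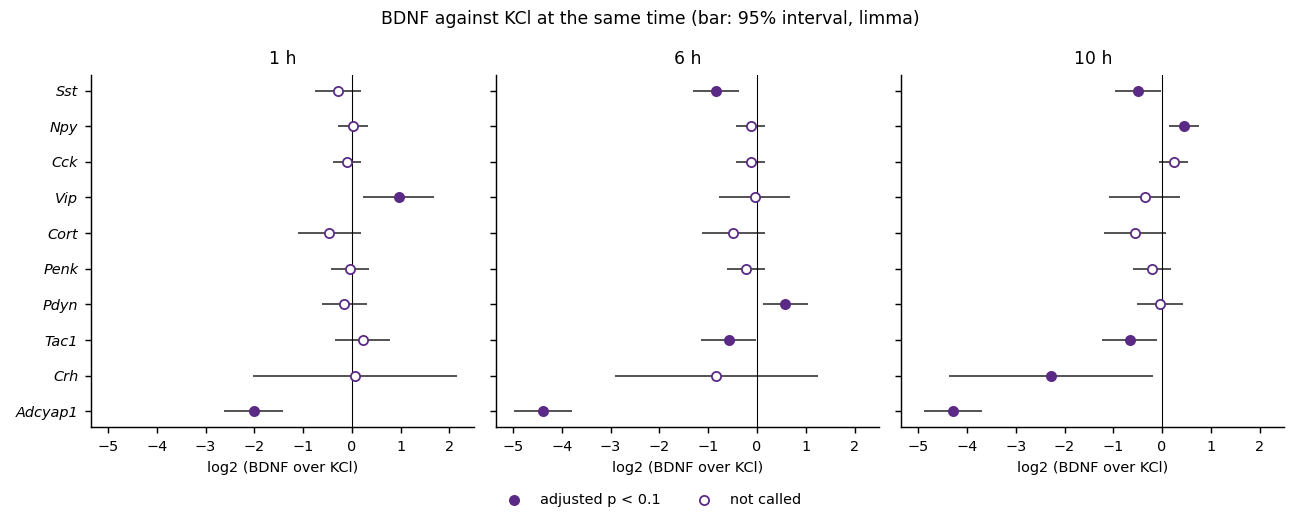
Log2 difference of BDNF over KCl (horizontal axis; bars are 95% intervals from limma) of the 10 precursors at 1, 6 and 10 h, with filled points past an adjusted p of 0.1. Adcyap1 lies far below 0 at each time (-2.01, -4.39 and -4.29), while Penk, Cck and Cort have open points throughout.

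To ask whether the response builds with time, the mean of the 6 and 10 h levels was compared with the 1 h level within each stimulus. With KCl, 8 members were higher late than at 1 h and 0 lower, against 32.1% of all genes higher and 29.3% lower. Crh is among the 8, and its late rise was a condition of its being tested. Of the members, 0 were lower at an unadjusted p under 0.05 and 0 by edgeR or DESeq2. The KCl increases from 1 h to late were 4.87 ± 0.84 for Crh, 2.09 ± 0.25 for Adcyap1, 1.07 ± 0.23 for Tac1, 0.73 ± 0.19 for Sst and 0.52 ± 0.12 for Npy on the log2 scale, and these calls held without each library. The size for Crh rested on the 1 h libraries, at 13.6 and 0: it was 6.81 without library A of KCl 1 h and 2.94 without library B. The increases of Vip (0.83 ± 0.30), Cort (0.71 ± 0.27) and Penk (0.46 ± 0.16) were lost without library A of KCl 1 h for Vip (0.50) and Cort (0.59), and without library B for Penk (0.17, against 0.76 without A). DESeq2 did not call the Vip increase either (0.82, adjusted p = 0.101, DESeq2). Pdyn (-0.30 ± 0.20) and Cck (0.21 ± 0.12) were not called, though Cck passed at 0.27 without library A of KCl 6 h. With library B of KCl 6 h left out, 8 members were still called.

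With BDNF, 4 members were higher late and 0 lower, against 19.5% of all genes higher and 20.6% lower, and 0 were lower at an unadjusted p under 0.05 or by edgeR or DESeq2. Crh is among the 4, under the same limit. Npy rose further by 0.66 ± 0.12 and held without each library. Crh rose by 3.25 ± 0.84, but by 2.59 and without passing when library A of BDNF 1 h was left out. Cck rose by 0.36 ± 0.12 and Cort by 0.65 ± 0.27. The Cck call was lost without either library of BDNF 1 h (0.39 and 0.33), and the Cort call without either of these (0.79 and 0.51), without library A of BDNF 6 h (0.50) or without library B of BDNF 10 h (0.60). Tac1, Sst, Penk and Vip had log2 differences of 0.22 ± 0.23, 0.34 ± 0.19, 0.29 ± 0.16 and -0.33 ± 0.30, which did not pass. Adcyap1 had -0.23 ± 0.25 and did not pass either, except without library A of BDNF 1 h, where it was -0.72.

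As a description over the 18 libraries, Pearson's r on the log2 values lay between 0.69 and 0.91 for every pair among Sst, Penk, Tac1, Npy, Cck and Crh, with the highest between Sst and Tac1 (0.91) and the lowest between Cck and Crh (0.69). Adcyap1 had r of 0.56 to Sst and 0.57 to Cort but 0.10 to Vip and -0.17 to Pdyn, and Pdyn had r between -0.17 and 0.39 to the other 9. These libraries share 9 conditions, so the correlations mostly describe the group means. Among the genes tested, those with the highest r to Adcyap1 were Kit (0.974), Scn1a (0.972) and Omg (0.970), while those named for Crh were Cds1 (0.956) and Asns (0.938). The highest to Tac1 were Fndc9 (0.946), Sult2b1 (0.945) and Fbl (0.938), and to Sst Gm10169 (0.983), Gde1 (0.979) and Mif (0.975).

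Several members mark interneurons, so 10 genes of GABAergic neurons were counted beside them. Pan-neuronal and GABAergic markers were all tested, and no marker of any list was at 0 in every library. The summed normalised count of the GABAergic markers was 14728 to 16853 in the controls and 17185 to 21323 in the 12 stimulated libraries, all above the highest control. The sum weighs abundant genes most: the median log2 fold change of the 10 was 0.06, 0.16 and -0.02 with BDNF at 1, 6 and 10 h. With KCl the median was 0.44, 0.22 and 0.16. With BDNF 4, 3 and 3 of the 10 were higher at 1, 6 and 10 h and 2, 0 and 0 lower. Over all genes, 21.3%, 22.1% and 21.1% were higher with BDNF and 19%, 21.1% and 19.5% lower. With KCl 7, 6 and 5 of the 10 were higher and 0, 3 and 3 lower. Over all genes, 26.5%, 33.4% and 29% were higher with KCl and 28.2%, 33.1% and 28.2% lower. Gad1 (0.89 ± 0.11 at KCl 10 h) and Slc32a1 (0.87 ± 0.14), which make and load GABA, rose, whereas the interneuron transcription factor Lhx6 fell at KCl 10 h (-0.39 ± 0.09). The part of these markers in the rise of the interneuron peptides was not tested.

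Markers of astrocytes moved the other way at late times. Of 5 tested, 5 and 3 were lower with BDNF at 6 and 10 h and 4 and 4 with KCl, and their summed level was 10563 to 15188 in the controls, 9947 to 10643 in the late BDNF libraries and 8599 to 10734 in the late KCl libraries. Of 6 progenitor markers, 4 and 4 were lower with late BDNF and 3 and 2 with late KCl, with 1 higher at KCl 6 h. Over all genes, 21.1% and 19.5% were lower at BDNF 6 and 10 h, and 33.1% and 28.2% at KCl 6 and 10 h. The progenitor counts with late KCl were thus not far from the background. The summed level of the progenitor markers was 8724 to 12067 in the controls, 8186 to 8737 in the late BDNF libraries and 7265 to 8861 in the late KCl libraries. Both lists overlapped the controls with late BDNF and with late KCl. Summed glutamatergic markers ran from 10050 to 11237 in the controls. They were 8754 and 8877 at BDNF 1 h, below every control, and 12238 and 12811 at KCl 6 h, above every control. The part of these lists in the results for the members was not tested.

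The ATAC-seq table was searched for accessible regions near the members, and 25 peaks had their centre within 50 kb of a member's start site, of which 24 were deep enough to test. Peaks over the promoter were found for Npy, Tac1 and Penk only. In the comparison with controls (edgeR with LOESS offsets, adjusted p below 0.1), 3 of the 24 were gained at BDNF 1 h, 0 changed at BDNF 6 h and 1 closed at BDNF 10 h. The 3 at BDNF 1 h include a peak upstream of Crh that passed the minimum mean of 10 only through its BDNF groups. With KCl, 3 were gained at 1 h, 1 closed at 6 h and 0 changed at 10 h. The share called in either direction among all 56383 peaks was 17.3%, 10.6% and 9.36% with BDNF and 8.34%, 7.49% and 7.87% with KCl. Taken over both directions, the counts were near this background or below it. By direction, 7040 of all peaks were gained and 2694 closed at BDNF 1 h, and 2985 and 1720 at KCl 1 h. At an unadjusted p under 0.05 edgeR had 1 near peak at BDNF 6 h and 0 at KCl 10 h. TMM scaling called 1 in each of these comparisons, and DESeq2 called 0 and 1.

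All 3 promoter peaks were gained with KCl at 1 h. The share of all promoter peaks gained in that comparison was not counted. The study reports that early accessibility changes lay in promoters more often with KCl than with BDNF. Whether the promoters of these genes stand apart from other promoters was not tested. The Npy promoter peak (chr6:49822068-49822729) had 17.4 to 29.4 scaled counts in the 6 controls (median 24.7), and 52.7 and 46.7 with KCl at 1 h. The Tac1 promoter peak (chr6:7554841-7555292) had 11.4 to 29.3 in the controls (median 17.1), and 37.8 and 33.0. The Penk promoter peak (chr4:4138363-4139047) had 32.6 to 75.1 (median 47.1), and 93.1 and 91.5. Each pair was above all controls, and the log2 fold changes were 1.04 ± 0.30 for Npy, 1.02 ± 0.34 for Tac1 and 0.88 ± 0.22 for Penk (adjusted p = 0.0261, 0.0609 and 0.00594, edgeR). With KCl at 6 h the log2 fold changes of these peaks were -0.37 ± 0.39, 0.15 ± 0.42 and 0.17 ± 0.26, which did not pass, while the RNA of all 3 genes was higher than in the controls. The second KCl 6 h library was shallow, with 1 read in the Npy peak. The BDNF 1 h libraries differed at the Npy peak, with 23.5 and 47.9 scaled counts. The Npy and Tac1 calls were lost without either library of KCl 1 h (0.96 and 1.13 for Npy, 0.93 and 1.13 for Tac1), and Tac1 also without the second 6 h control (0.93), while the Penk call held without each library. With controls of the same time the Npy and Tac1 calls were lost too, at 0.97 and 1.20.

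With BDNF at 1 h the Penk promoter peak had 76.1 and 71.8 scaled counts and was called at 0.56 ± 0.23 (adjusted p = 0.0908, edgeR), inside the range of the controls in 1 of the 2 libraries. A peak 11.7 kb upstream of Crh (chr3:19706999-19707218) had 4.06 to 12.1 scaled counts in the controls, 21.8 and 16.3 with BDNF at 1 h and 0.853 and 10.7 with KCl at 1 h, and was gained with BDNF by 1.35 ± 0.49 (adjusted p = 0.0464, edgeR). It was a thin peak, with 3 to 10 reads in each control, and Crh RNA was not called at that time. Its mean scaled count was 7.42 in the controls, and 5.80, 6.22 and 4.30 with KCl at 1, 6 and 10 h. With BDNF it was 19.1, 15.0 and 17.3. The peak passed the minimum mean of 10 only through its BDNF groups, so a high level with BDNF was a condition of its being tested. A peak 17.8 kb upstream of Cort (chr4:149144379-149144732), nearer to the start of Cenps, was gained by 0.78 ± 0.33 (adjusted p = 0.0998, edgeR) at BDNF 1 h, with 44.1 and 35.5 against 15.4 to 27.7 in the controls. The Crh call was lost without either BDNF 1 h library (0.77 and 1.20), the Penk call without either of these or any of the 1 h and 10 h controls (0.44 to 0.61), and the Cort call without either of these, the second 1 h control or either 6 h control (0.63 to 0.95). Controls of the same time also ended the Crh and Cort calls, at 1.50 and 0.73. The Penk call was also lost with TMM scaling (adjusted p = 0.111, edgeR) and by DESeq2 (adjusted p = 0.183, DESeq2). The Cort call was also lost by DESeq2 (adjusted p = 0.113, DESeq2) and without the filter on low counts (adjusted p = 0.1004, edgeR).

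The closing peaks were 1.5 kb upstream of Penk and 40.4 kb upstream of Adcyap1. The Penk peak (chr4:4140165-4140526) had 35.6 to 88.3 scaled counts in the controls and 38.7 and 22.2 with BDNF at 10 h, and fell by 0.87 ± 0.32 on the log2 scale (adjusted p = 0.0858, edgeR). It was lost without the second BDNF 10 h library (-0.47), the first 10 h control (-0.71) or the first 6 h control (-0.87). DESeq2 did not call that peak either (-0.88, adjusted p = 0.101, DESeq2). The Adcyap1 peak (chr17:93158433-93158743), the only one within 50 kb of that gene, had 25.9 to 42.4 in the controls and 13.8 and 10.3 with KCl at 6 h. It fell by 1.41 ± 0.42 on the log2 scale (adjusted p = 0.0278, edgeR), at a time when Adcyap1 RNA was 7.46 times the control mean, and the call was lost without either library of KCl 6 h (-1.71 and -1.29) and with controls of the same time (-1.04). The second KCl 6 h library was the shallowest of the ATAC-seq libraries, with 1.24 M reads in peaks.

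**Figure D4:**
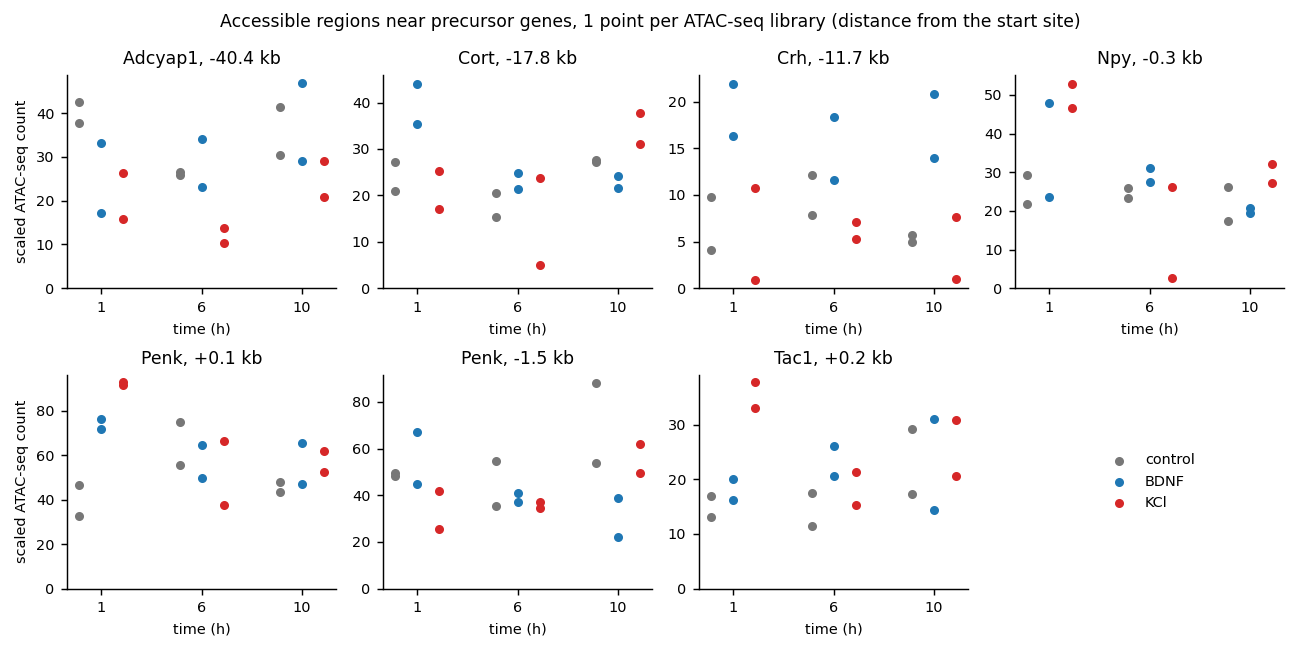
Scaled ATAC-seq count (vertical axes, starting at 0) against time in hours for the 7 peaks near members that were called in a comparison with controls, 1 point per library (controls grey, BDNF blue, KCl red) and distance from the start site in the panel titles. The KCl 1 h libraries are the highest of their panel at the Penk promoter (93.1 and 91.5) and the Tac1 promoter (37.8 and 33.0).

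The other genes of the neuropeptide system were counted from fixed lists. Counts in these lists are to be read against the shares of all genes called in the same comparisons. With BDNF at 1, 6 and 10 h, 21.3%, 22.1% and 21.1% of all genes were higher and 19%, 21.1% and 19.5% lower. With KCl, 26.5%, 33.4% and 29% were higher and 28.2%, 33.1% and 28.2% lower. Of 36 further precursors 13 passed the minimum mean, among them Gal, Npb and Cartpt, whose control means of 0.982, 2.84 and 6.37 were under it and which passed only through stimulated groups, so the counts lean toward increases. Of the 13, 7, 6 and 5 were higher with BDNF at 1, 6 and 10 h (0, 1 and 0 lower), and 6, 7 and 6 with KCl (0, 2 and 4 lower). Gal, the precursor of galanin, ran from 0 to 1.96 normalised counts in the controls and reached 12.2 and 13.7 at BDNF 1 h, 113 and 114 at 6 h, then 138 and 147 at 10 h, against 3.70 and 9.62 at KCl 1 h, 2.32 and 3.93 at KCl 6 h, and 1.22 and 2.18 at KCl 10 h. The 1 and 6 h KCl libraries were thus also above the highest control. Its log2 fold change at BDNF 10 h was 6.25 ± 0.41. Cartpt, the precursor of the CART peptides, ran from 1.20 to 10.5 in the controls and reached 113 and 119.8 at KCl 10 h (4.19 ± 0.45), against 13.6 and 17.4 at BDNF 10 h (1.35 ± 0.45). Npb, for neuropeptide B, was transient, with 58.0 and 60.9 at KCl 1 h against 1.14 to 4.81 in the controls (4.07 ± 0.58). Grp, for gastrin-releasing peptide, was like Adcyap1 in having opposite calls but with the stimuli exchanged: 1.50 ± 0.20 at BDNF 10 h and -1.68 ± 0.20 at KCl 10 h. Npff (-1.18 ± 0.25 at KCl 6 h) and Nmb (-0.70 ± 0.22 at KCl 10 h) were the other named genes that fell.

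Of 22 receptors 15 were tested, and 6, 11 and 7 were higher with BDNF (3, 2 and 1 lower) and 3, 8 and 7 with KCl (3, 4 and 3 lower), the 3 at KCl 1 h being under the background of 26.5%. The list holds receptors for the peptides of the members. Cckbr, a cholecystokinin receptor, rose by 3.03 ± 0.22 at BDNF 1 h, from 10.3 to 21.8 in the controls to 136 and 139.9. Sstr3, a somatostatin receptor, rose by 2.96 ± 0.24 at BDNF 6 h, and Vipr1, which binds both VIP and PACAP, by 2.10 ± 0.20 at BDNF 1 h. Npy1r, a neuropeptide Y receptor, fell at BDNF 1 h (-1.35 ± 0.11, from 305 to 421 in the controls to 134 and 154) and rose at KCl 10 h (1.40 ± 0.11, to 936 and 1014). At BDNF 6 and 10 h it fell as well (-0.92 ± 0.11 and -0.85 ± 0.11), at times when Npy rose. Npy2r fell at KCl 1 h (-1.08 ± 0.17), and the delta opioid receptor Oprd1 at KCl 10 h (-1.27 ± 0.31).

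Of 14 genes that process or bind neuropeptides, all tested, 6, 6 and 6 were higher with BDNF (1, 2 and 2 lower) and 8, 12 and 10 with KCl (2, 1 and 1 lower). The counts lower with KCl were under the background of 28.2%, 33.1% and 28.2%. Pcsk1, a convertase that cuts many precursors, rose by 4.63 ± 0.24 at KCl 6 h, from 16.6 to 31.9 in the controls to 511 and 575. The related convertase Pcsk2 fell at BDNF 10 h (-1.44 ± 0.08) and rose at KCl 10 h (0.58 ± 0.08). Crhbp, which binds and sequesters the CRH peptide, rose by 3.41 ± 0.22 at BDNF 10 h, to 208 and 234 from 15.4 to 25.2, and by 2.25 ± 0.22 at KCl 10 h, whereas Crh itself was higher with KCl than with BDNF in every 10 h library. Pcsk5 rose by 1.46 ± 0.11 at KCl 10 h, Pcsk6 fell at KCl 6 h (-0.94 ± 0.15) and Furin fell at KCl 1 h (-0.54 ± 0.07).

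**Figure D5:**
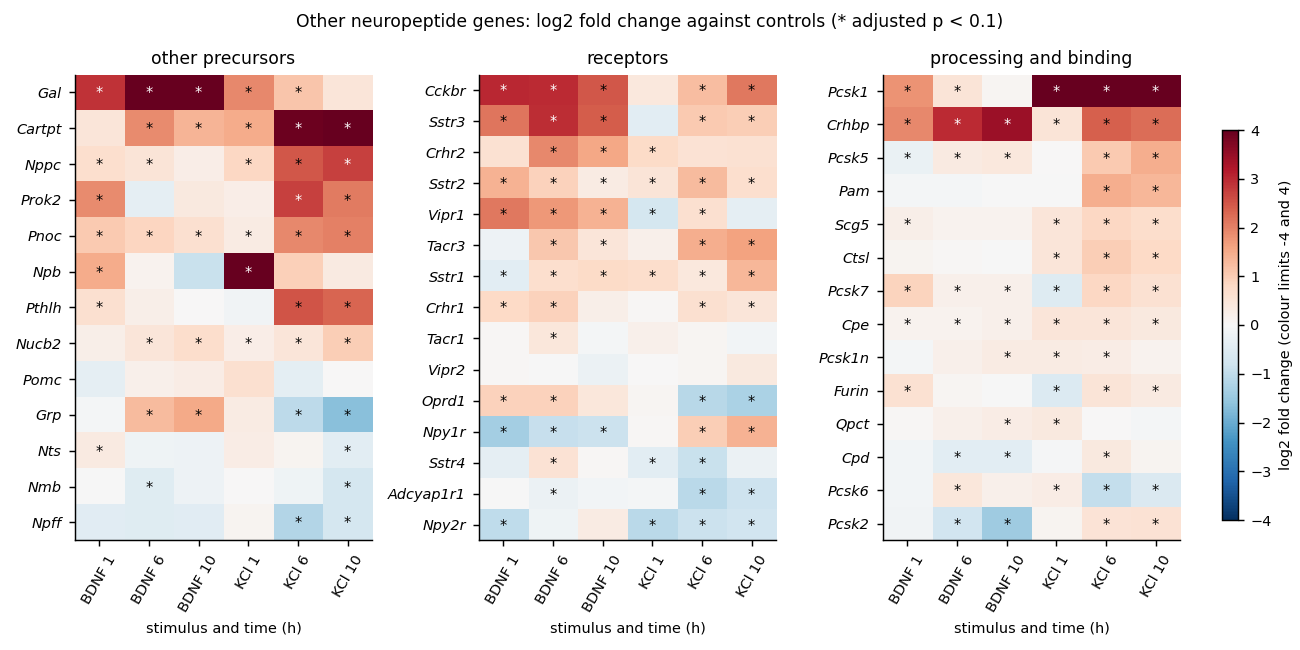
Log2 fold change against the controls (colour, limited to -4 and 4) of the tested genes of 3 lists, in rows, over the 6 stimulated groups, in columns, with an asterisk where the adjusted p was below 0.1. Gal, Cckbr and Sstr3 are strongest under BDNF, and Pcsk1 and Cartpt under KCl.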

How the data were processed

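RNA-seq and ATAC-seq were measured in 18 libraries each, grouped by the GEO labels into 9 groups of 2. Per the labels and the study's methods the authors used TopHat2, Bowtie2, Trimmomatic, MACS2, DiffBind and DESeq2 with genome build mm10. The deposited RNA values are a signal, gene counts that the authors divided by DESeq2 size factors. They are whole multiples of 1 read's worth in every library (100% of values within 0.01 of a whole read), so reads were recovered for the count tools. The deposited ATAC-seq table is named as normalised, but its values are whole numbers with different totals per library and were taken as raw counts per peak. If the authors had scaled and rounded them, the scaled counts and edgeR tests here would rest on values that are not read counts. The authors' tables of fold changes and p-values were not used, apart from their gene symbols, and the recovered names covered 26203 of 26709 genes.

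RNA values were tested as log2(value + 1) with limma 3.58.1 (trend, robust) in R 4.3.3, with 3 BDNF levels, 3 KCl levels and the 6 controls as 1 level, after a minimum mean of 10. The fold changes are on that scale. Peaks were tested with the edgeR 4.0.16 quasi-likelihood test with LOESS offsets in the same design, and scaled counts are counts divided by those offsets. Calls are at a two-sided adjusted p below 0.1. Promoter peaks overlap the stretch from 1000 bases before to 100 after the GENCODE start site. Alternatives were other pseudocounts and filters, edgeR and DESeq2 1.42.0 on reads, TMM scaling, controls of the same time, a replicate block, an adjusted p below 0.01, a 20 kb window and leaving out each library. The main limma fit and the main edgeR fit were tested on simulated data, at BDNF 1 h and KCl 1 h against controls. The spread between simulated libraries was set and not estimated from these data. The alternatives, BDNF against KCl and late against 1 h were not simulated.

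The members, lists, motifs and named genes were chosen with earlier results of these data known. All 10 members are named. From each list of other neuropeptide genes, the 3 with the largest called change in each direction over the comparisons with controls are named, and of the peaks, each promoter peak and each member's called peak with the largest change. The peak 1.5 kb upstream of Penk falls outside that rule and was chosen after its values were seen. The genes most like a member are the 3 with the highest Pearson's r, for the 4 members with the largest range of group means, apart from 1 gene that is not reported here. Gad1, Slc32a1 and Lhx6 were also named after their values were seen. Replicate precision is limited by 2 libraries a group, and counts of Crh, Vip and Tac1 are low.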

Additional observations from a re-analysis of the deposited data

Results flagged for a closer look

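In the ATAC-seq controls, 1 library lay far from the other 5 at 2 of the 17 groups of values checked, as the gap to its nearest neighbour over the range of the group. The peak 1.5 kb upstream of Penk had 88.3 scaled counts in the first 10 h control against 35.6 to 54.5 in the others (gap over range 0.641). The Tac1 promoter peak had 29.3 in the same library against 11.4 to 17.5 (0.658). Chance gives such a gap in about 1 of 20 groups. The change from controls differed between late times and 1 h, by the limma test of that difference, for 4 members with BDNF: Crh by 3.25, Npy by 0.66, Cort by 0.65 and Cck by 0.36 on the log2 scale, all higher late. With KCl it differed for 8, all higher late. Crh differed by 4.87, Adcyap1 by 2.09, Tac1 by 1.07 and Vip by 0.83. Sst differed by 0.73, Cort by 0.71, Npy by 0.52 and Penk by 0.46. Because late and 1 h values were set against the same controls, these are also the differences between the stimulated groups themselves. Crh is in both counts, and its late rise was a condition of its being tested.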

How the results depend on the processing

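Of the 71 calls of members over the 11 RNA comparisons, 44 were kept without each library in turn, 27 were lost without at least 1, and 42 were kept under every alternative. With controls of the same time, members called went from 6 to 3 at BDNF 1 h, from 7 to 3 at KCl 1 h and from 5 to 3 for BDNF against KCl at 10 h. At an adjusted p below 0.01 they went from 2 to 1, 4 to 2 and 5 to 1 for BDNF against KCl at 1, 6 and 10 h, and from 4 to 2 and 8 to 5 for late against 1 h with BDNF and KCl. With a minimum mean of 50, which left 6 members, 1 was called for BDNF against KCl at 1 h, and 2 and 5 for late BDNF and late KCl. DESeq2 called 1 for BDNF against KCl at 1 h, and also Crh at KCl 1 h (1.66), while edgeR also called Crh for BDNF against KCl at 6 h (-0.88). Leaving out 1 library gave 2 to 7 members at BDNF 1 h, 4 to 7 at KCl 1 h, 1 to 3 and 1 to 2 for BDNF against KCl at 1 and 10 h, and 2 to 4 for late BDNF. Leaving out 1 library reversed 2 values, with the 2 KCl 1 h libraries of Crh at 13.6 and 0: Crh at KCl 1 h ranged from -1.48 to 2.38, and Crh for BDNF against KCl at 1 h from -1.87 to 2.00. The cause of the other changes was not tested. For peaks near members, an adjusted p below 0.01 gave 0 at BDNF 1 h, 0 at BDNF 10 h, 1 at KCl 1 h and 0 at KCl 6 h, and controls of the same time gave 1 at BDNF 1 h, 1 at KCl 1 h and 0 at KCl 6 h. DESeq2 gave 1 at BDNF 1 h, 2 at BDNF 10 h, 2 at KCl 6 h and 1 at KCl 10 h. TMM scaling gave 1, 3 and 1 at BDNF 6 h, BDNF 10 h and KCl 10 h, and the 20 kb window 0 at KCl 6 h. Leaving out 1 library gave 0 to 2 peaks at BDNF 1 h and 10 h, 1 to 3 at KCl 1 h and 0 to 1 at KCl 6 h. Whether the library letters pair the RNA samples was not settled: over 36 pairs of groups the correlation of deviations ran from -0.31 to 0.42 (median 0.06), with 13 over 0.1. With the letter as a replicate block, 6, 9 and 8 members were called with BDNF and 7, 9 and 9 with KCl, and Sst for BDNF against KCl at 10 h (-0.49, adjusted p = 0.119, limma) was the only call lost. No paired analysis was possible for the ATAC-seq data because the columns carry only the group. With 2 libraries a group, low genes such as Crh at 1 h could not be resolved at this depth.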
